A study of Mus musculus with 6 samples.

Results

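Accessible promoters of long non-coding RNA (lncRNA) genes were examined in Beko cells. A lncRNA promoter peak was an accessible interval on an autosome within 1 kb of a transcript start of a lncRNA gene and more than 1 kb from every transcript start of a protein-coding gene. By this rule 408 of the 31879 autosomal peaks (1.28%) were lncRNA promoter peaks, out of 32527 peaks in the whole list. They covered 283.7 kb. Beko cells are a mouse progenitor T-cell line with constitutively active Notch signaling. The 6 ATAC-Seq libraries were 3 from cells given the γ-secretase inhibitor (GSI) DAPT for 24 h and 3 from cells given DMSO for 24 h. GSI stops the cleavage that frees the intracellular part of Notch, which activates genes through the DNA-binding factor RBPJ. Both groups entered 1 merged list of intervals without values per library, so GSI against DMSO was not analysed here and no error between libraries can be given. Errors below are the spread over 19 autosomes or Wilson intervals (95%) for shares, and the latter cover counting error only.

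LncRNAs are transcripts without a long open reading frame, and many are spliced and polyadenylated like mRNAs. Their promoters lie in nucleosome-depleted DNA. Some resemble the CpG islands of housekeeping genes, which bear runs of unmethylated CpG and sites for SP and ETS factors, and others resemble enhancers, which are poor in CpG. Several lncRNA genes serve as hosts of snoRNAs or miRNAs, and others, such as Airn at the Igf2r locus, act on the genes beside them.

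Stretches around the annotated starts of 7 lncRNA genes are printed first, since they show the range of base composition on which much of the following rests. Each runs from 100 bp before the start to 100 bp from the start on, 5′ to 3′ on the strand of the lncRNA, in the mm9 build, with every CpG in capitals. The first 4 come from CpG-rich peaks, defined over the whole peak as 50% GC or more together with a CpG count at or above 0.6 times that expected from the C and G content.
Malat1, chr19:5802572-5802771, minus strand: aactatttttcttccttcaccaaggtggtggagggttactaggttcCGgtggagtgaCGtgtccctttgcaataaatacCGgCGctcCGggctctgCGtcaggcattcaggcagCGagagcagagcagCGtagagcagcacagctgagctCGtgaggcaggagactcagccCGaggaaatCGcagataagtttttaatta
Airn, chr17:12934077-12934276, plus strand: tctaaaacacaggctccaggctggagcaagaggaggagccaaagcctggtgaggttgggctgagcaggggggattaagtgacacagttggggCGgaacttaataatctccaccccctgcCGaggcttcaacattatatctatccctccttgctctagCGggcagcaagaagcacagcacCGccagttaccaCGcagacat
Dleu2, chr14:62267551-62267750, minus strand: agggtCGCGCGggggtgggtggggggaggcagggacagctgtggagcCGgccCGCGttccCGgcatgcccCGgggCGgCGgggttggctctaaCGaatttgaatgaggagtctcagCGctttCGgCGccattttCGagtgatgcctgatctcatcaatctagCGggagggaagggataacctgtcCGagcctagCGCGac
1700020I14Rik (Oip5os1), chr2:119419933-119420132, plus strand: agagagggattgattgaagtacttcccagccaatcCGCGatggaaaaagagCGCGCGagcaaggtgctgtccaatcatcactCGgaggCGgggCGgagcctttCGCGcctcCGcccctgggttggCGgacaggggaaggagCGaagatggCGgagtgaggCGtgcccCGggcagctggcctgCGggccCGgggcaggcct

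The next 3 come from peaks that were CpG-poor by that definition.
A430104N18Rik, chr11:87568979-87569178, plus strand: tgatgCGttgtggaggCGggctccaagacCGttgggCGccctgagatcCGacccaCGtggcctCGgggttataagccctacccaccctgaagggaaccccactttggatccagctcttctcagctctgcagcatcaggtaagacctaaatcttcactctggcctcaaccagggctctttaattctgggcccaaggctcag
A630071L07Rik (Nron), chr2:33661236-33661435, plus strand: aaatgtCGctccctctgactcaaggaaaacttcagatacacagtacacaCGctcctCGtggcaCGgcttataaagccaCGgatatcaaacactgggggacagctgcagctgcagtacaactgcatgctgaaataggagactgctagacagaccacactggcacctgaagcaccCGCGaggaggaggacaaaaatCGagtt
Pvt1, chr15:61869442-61869641, plus strand: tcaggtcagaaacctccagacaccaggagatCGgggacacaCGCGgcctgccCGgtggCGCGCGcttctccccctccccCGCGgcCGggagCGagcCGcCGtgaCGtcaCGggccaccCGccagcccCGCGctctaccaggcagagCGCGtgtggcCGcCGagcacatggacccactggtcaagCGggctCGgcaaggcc

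In these stretches Dleu2, the host of the Mir15a and Mir16-1 cluster, had 19 CpG and Oip5os1 had 18. Malat1, an abundant nuclear lncRNA, had 11, and Nron, a repressor of NFAT traffic, had 8. A430104N18Rik, the host of Mir142, had 7. Airn had only 5 CpG although its whole peak was CpG-rich, with a ratio of 0.609 just above the limit. Pvt1, the neighbour of the oncogene Myc, had the most of the 7, with 24 CpG and a GC content of 73.5%, although its whole peak was CpG-poor. The Pvt1 stretch also held TGACGTCA, the full site of CREB and ATF factors, although the central 200 bp of the same peak did not. Of all autosomal peaks, 0.772% held it in their central 200 bp.

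The label was first checked against the annotation and against genes of known cell types. Among the 4 gene types of the rule, the GENCODE annotation of this build held 1232 autosomal lincRNA genes and 2437 processed_transcript genes, and 0 genes of type antisense or sense_intronic. Those terms occur there only as types of single transcripts. By the transcripts within 1 kb, 185 peaks were of the lincRNA class, 119 antisense, 86 processed_transcript, 7 sense_intronic and 11 other. Of the 408 peaks, 201 belonged to genes that RefSeq types as lncRNA, 33 to genes it types as protein-coding and 14 to pseudogenes, while 156 had no matching symbol. Among the coding genes was Gfi1, a transcriptional repressor of lymphoid and myeloid progenitors, with 2 peaks. Without the genes that RefSeq types as coding or pseudogene, 361 peaks remained, and no comparison of width or CpG-rich share changed its direction or its side of the threshold. Of T-lineage markers, 9 of 10 had a peak within 1 kb of a start, among them Cd3e, Cd3g and Bcl11b. None of the 6 B-lineage markers and none of the 6 myeloid markers had one. Of the 3 erythroid markers on autosomes, Epor and Klf1 had one.

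LncRNA genes had an accessible start less often than coding genes. A peak lay within 1 kb of a start in 1006 of 3669 lncRNA genes (27.4%, 26.0 to 28.9) and in 10199 of 21418 coding genes (47.6%, 47.0 to 48.3). The difference was −18.2 ± 8.39 percentage points (mean ± SD over autosomes) and was negative on 19 of 19 autosomes (two-sided exact sign test, p = 3.82e-06, the smallest p that 19 autosomes allow). The lncRNA genes were not alike in this. Of 1095 lncRNA genes with a start within 1 kb of a coding start, 613 (56.0%, 53.0 to 58.9) had a peak, against 393 of the other 2574 (15.3%, 13.9 to 16.7). When the latter were sorted by the types of their transcripts, a peak was found for 85 of 329 in the processed_transcript class, 180 of 1203 in the lincRNA class, 114 of 943 in the antisense class, 7 of 77 in the sense_intronic class and 7 of 22 with other types. The number of transcripts of a gene, and so of starts that a peak can meet, was not matched in these comparisons. Its part in the difference was not tested, and a limit to genes with 1 transcript also changes which genes are compared. When only genes with 1 transcript were compared, the shares were 24.0% for lncRNA and 27.6% for coding genes, and the difference of −2.45 ± 9.40 points did not pass the test (exact p = 0.648).

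**Figure D1:**
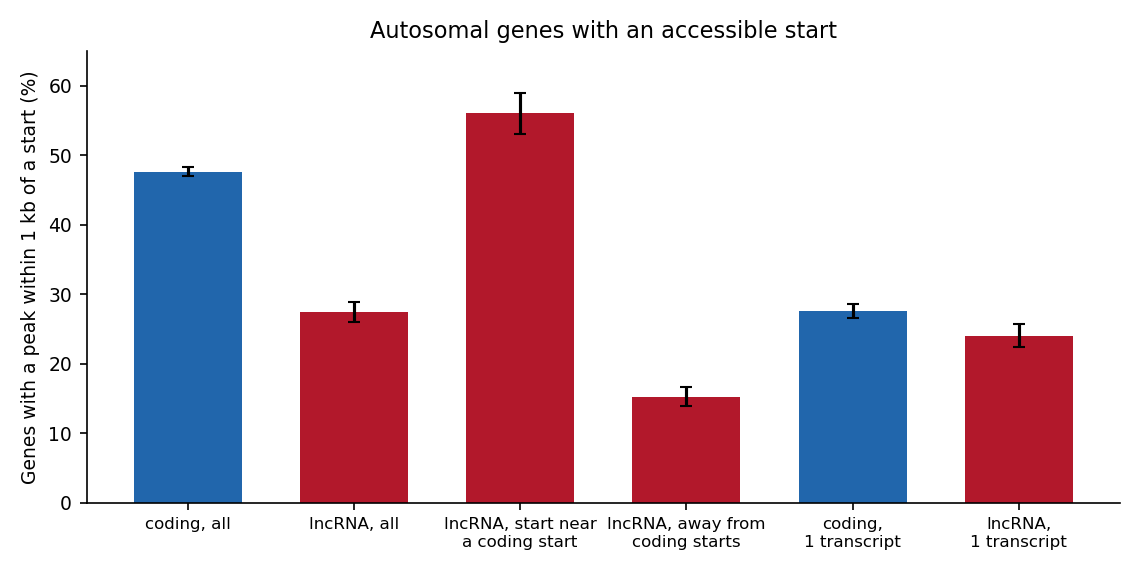
Bars give the percentage of autosomal genes with a peak within 1 kb of any of their transcript starts, and error bars are 95% Wilson intervals. LncRNA genes with a start near a coding start reached 56.0%, those away from coding starts 15.3%, and the difference between lncRNA and coding genes was small among genes with 1 transcript (24.0% and 27.6%).

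The 408 peaks belonged to 375 nearest lncRNA genes. In total 31 genes had more than 1 such peak. Most peaks were at Dleu2 and 2610307P16Rik, with 3 each, and 29 genes shared the next place with 2, among them Snhg7, Snhg12 and A430104N18Rik. Chromosomes 2, 4 and 11 held 39.0% of the peaks and 41.5% of the lncRNA genes. Per 100 annotated lncRNA genes there were between 7.69 peaks, on chromosome 18, and 19.6 peaks, on chromosome 17. The annotated start lay inside the peak in 246 of 408 (60.3%, 55.5 to 64.9). Where it did not, it lay a median of 519 bp away, up to 990 bp. Just inside the 1 kb limit were the peaks of Gm13185 (986 bp from the start) and D430018E03Rik (990 bp), and just outside were those near Gm16338 (1002 bp) and Gm14618 (1016 bp). On the side of the coding limit, the closest peaks kept were at Gm11345, 1001 bp from a start of Cmah, and 5430425J12Rik, 1007 bp from a start of Slc6a19. The closest ones left out were near 1810059C17Rik, 935 bp from a start of Mllt10, and 9530052E02Rik, 902 bp from a start of Irs2. A further 646 peaks lay within 1 kb of both kinds of start and were left out by the rule.

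LncRNA promoter peaks were intermediate in width. Their median width was 626.5 bp, the middle quartiles spanned 441.5 to 878.5 bp, and the extremes were 271 and 1891 bp. Peaks within 1 kb of a coding start (n = 10437) had a median of 870 bp, and distal peaks (n = 20685), which had no annotated start of any kind within 1 kb, had a median of 465 bp. Compared within each autosome, the width of lncRNA promoter peaks differed from that of coding promoter peaks by −234 ± 93.1 bp, with 19 of 19 autosomes lower (exact p = 3.82e-06). They were wider than distal peaks by 176 ± 90.9 bp, also on 19 of 19 (exact p = 3.82e-06). Base composition moved with the first difference. Among CpG-rich peaks it was −99.7 bp (exact p = 0.0309), and among CpG-poor peaks it was −47.6 ± 123 bp, with 14 of 19 autosomes lower (exact p = 0.0636). LncRNA promoter peaks with the start inside were wider (median 744 bp) than those with the start outside (479 bp). Coding promoter peaks with a start inside had a median of 909 bp. Between the 2 classes with the start inside, the difference was −147.5 ± 131.8 bp, with 17 of 19 autosomes lower (exact p = 0.000729).

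The widest peak, of 1891 bp, lay at Gm16046 (chr17:13819245-13821135), inside the coding gene Tcte2. The next were at AI662270 (1794 bp, chr11:83036818-83038611), Malat1 (1745 bp, chr19:5802361-5804105), Pvt1 (1695 bp, chr15:61869281-61870975) and Gm16534 (1659 bp, chr2:31917549-31919207). Of these 5, only the Malat1 peak was CpG-rich.

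CpG content divided the lncRNA promoter peaks as well. In total 96 of 408 (23.5%, 19.7 to 27.9) were CpG-rich, compared with 71.9% of coding promoter peaks and 2.89% of distal peaks. Within autosomes the share differed from that of coding promoter peaks by −46.3 ± 13.3 percentage points, with 19 of 19 lower (exact p = 3.82e-06). It was 23.7 ± 15.5 points above that of distal peaks, on 18 of 19 (exact p = 7.63e-05). The exception was chromosome 15, where none of its 14 lncRNA promoter peaks was CpG-rich. CpG-rich peaks made up 28.7% of the lincRNA class (22.6 to 35.6), 27.9% of the processed_transcript class (19.5 to 38.2) and 14.3% of the antisense class (9.12 to 21.7).

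**Figure D2:**
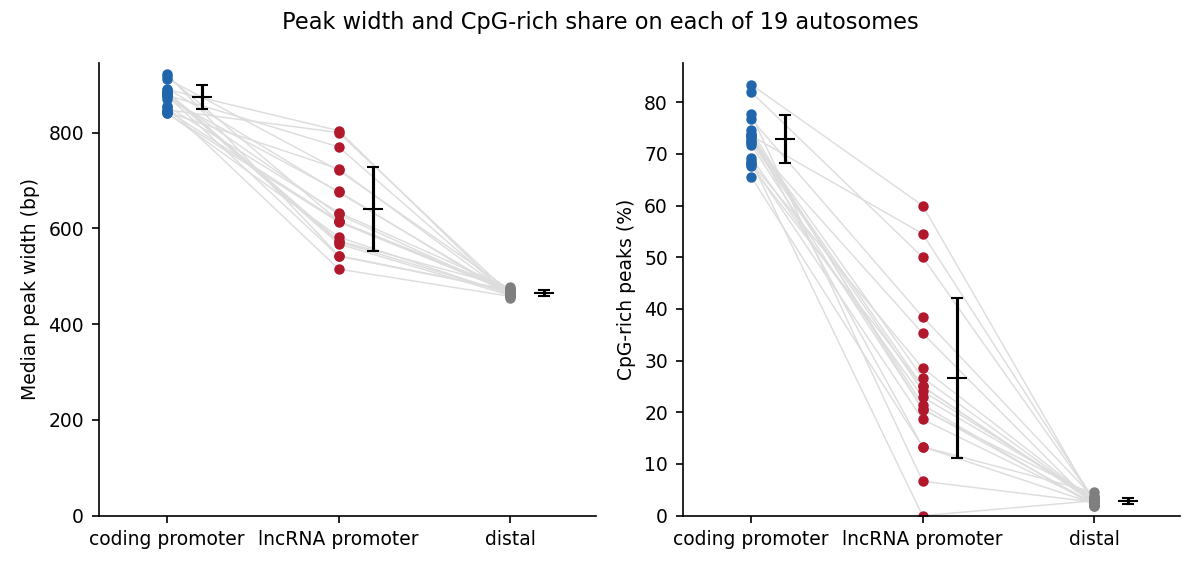
Each point is 1 of 19 autosomes, grey lines join the same autosome, and bars to the right give the mean and SD over autosomes. The left panel shows the median peak width in bp and the right panel the percentage of CpG-rich peaks, and on both the lncRNA promoter peaks lie between coding promoter and distal peaks.

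The CpG-rich lncRNA promoter peaks also differed in other respects, which are given as a description. Their annotated start lay inside the peak in 83.3% (74.6 to 89.5), against 53.2% (47.7 to 58.7) of the 312 CpG-poor ones. They lay outside coding genes in 91.7% (84.4 to 95.7), against 60.9% (55.4 to 66.2). Their median width was 778 bp, against 577 bp. By contrast, the share whose nearest coding start lay within 5 kb was 19.8% in the CpG-rich and 22.8% in the CpG-poor peaks.

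Because a wide peak can dilute a short CpG-rich stretch, as in Pvt1, the same limits were applied to the 200 bp around the start in peaks with the start inside. This window was chosen after the data had been seen. The share of CpG-rich lncRNA promoters then rose from 32.5% to 41.5% (35.5 to 47.7, n = 246), and 29 of 166 CpG-poor peaks (17.5%, 12.5 to 24.0) were CpG-rich around the start. Coding promoter peaks gave 79.5% and 82.3% (n = 9088), and 593 of their 1860 CpG-poor peaks (31.9%, 29.8 to 34.0) were CpG-rich around the start. The difference between the classes was −39.5 ± 18.1 points around the start and was negative on 19 of 19 autosomes (exact p = 3.82e-06).

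Peaks at lncRNA starts lay differently around the start from peaks at coding starts. In 240 lncRNA promoter peaks with starts of 1 strand inside, the median reach was 366 bp upstream and 312 bp downstream. The upstream reach was larger on 15 of 19 autosomes (exact p = 0.0192). In the 165 CpG-poor ones the medians were 334 and 258 bp, and in the 75 CpG-rich ones 390 and 399 bp. The upstream reach was the larger in 61.2% of the CpG-poor and 56.0% of the CpG-rich ones. Coding promoter peaks reached 348 bp upstream and 492 bp downstream. Taken peak by peak, the median of upstream minus downstream reach was 66.0 bp for lncRNA and −123.5 bp for coding promoter peaks. Within autosomes these differed by 194 ± 130.5 bp, on 18 of 19 (exact p = 7.63e-05). The comparison with coding promoter peaks was chosen after the data had been seen. Among CpG-rich peaks the difference was 182 bp (15 of 18 autosomes, exact p = 0.00754), and among CpG-poor peaks it was 163 bp (14 of 19, exact p = 0.0636). How exactly lncRNA starts are annotated was not tested.

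**Figure D3:**
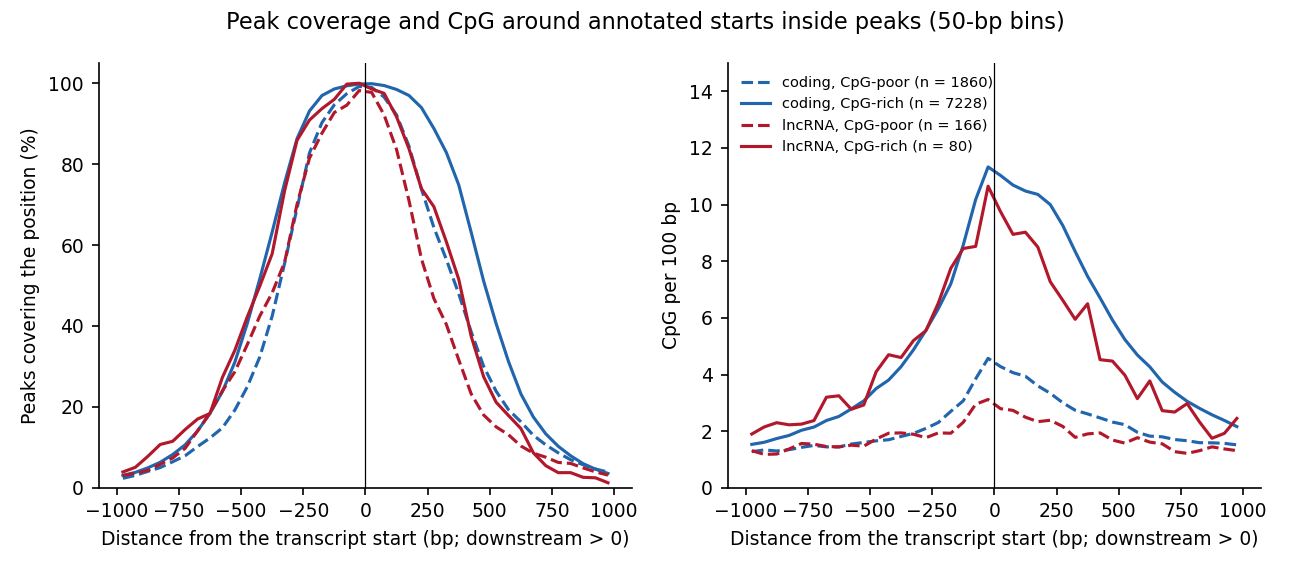
The left panel gives the percentage of peaks that cover each 50-bp bin around the annotated start, and the right panel the mean number of CpG per 100 bp, with downstream to the right. In the bin centred 225 bp downstream, 94.0% of CpG-rich coding peaks but 74.0% of CpG-rich lncRNA peaks still covered the position, and in the bin just upstream of the start the CpG density was 11.3 and 10.7 per 100 bp.

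The cores of 11 transcription factor motifs were then counted on both strands of the central 200 bp of each peak. GGGCGG, the core of SP factors, was present in 24.3% of lncRNA promoter peaks (20.4 to 28.7), in 51.3% of coding promoter peaks and in 9.18% of distal peaks. Both differences passed the sign test with Benjamini-Hochberg adjustment over the 11 cores (adjusted exact p = 4.20e-05 and 0.00401). CCGGAA, the core of ETS factors, which include regulators of lymphoid development, showed the same order with 10.5%, 19.5% and 4.53% (adjusted exact p = 0.0243 and 0.0122). Neither difference for CCGGAA passed with lincRNA genes only (adjusted exact p = 0.140 and 0.439) or more than 5 kb from coding starts (0.0704 and 0.306), and that from coding promoter peaks did not pass without chromosomes 2, 4 and 11 (0.0585). The order of the shares was opposite for the cores of E proteins and RUNX factors, 2 families of lymphoid regulators. CAGCTG, a core of the E proteins that direct early T-cell development, was in 18.6% of lncRNA promoter peaks and in 25.7% of distal peaks (adjusted exact p = 0.0122), and in 12.8% of coding promoter peaks (adjusted exact p = 1.0). TGTGGTT, the core of RUNX factors, was in 6.13%, against 11.3% of distal peaks (adjusted exact p = 0.000839) and 3.02% of coding promoter peaks (adjusted exact p = 0.891). Over the whole peak rather than its central 200 bp, neither of these differences from distal peaks passed the test (adjusted exact p = 1.0 for CAGCTG, with a difference of 3.65 ± 15.8 points, and 0.494 for TGTGGTT). Distal peaks were narrower, a wider peak holds more matches of any core, and whole-peak shares were not matched for width. The difference of CAGCTG from distal peaks also missed the threshold with lincRNA genes only (adjusted exact p = 0.306) and without the genes that RefSeq types as coding or pseudogene (0.0528). Against coding promoter peaks, the difference with all autosomes pooled was 5.82 points for CAGCTG (Newcombe interval 2.28 to 9.93). For TGTGGTT it was 3.11 points (1.14 to 5.89). Both intervals were thus positive throughout, although the sign test was not passed. Within CpG-rich peaks and within CpG-poor peaks, the pooled intervals of both cores against coding promoter peaks spanned both signs. Over all autosomal peaks the 4 cores were in 23.3%, 9.51%, 21.4% and 8.48%.

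TGGGAA, the core bound by RBPJ, was in 16.4% of lncRNA promoter peaks (13.1 to 20.3), in 16.4% of distal and in 12.9% of coding promoter peaks, and in 15.3% of all autosomal peaks. Neither difference passed the sign test (adjusted exact p = 1.0 and 0.891). With all autosomes pooled, the difference from distal peaks was 0.0232 percentage points with an interval from −3.30 to 3.96, and that from coding promoter peaks was 3.49 points (0.143 to 7.44). The degenerate core TGAGAA was in 14.2%, 16.7% and 7.86% of lncRNA promoter, distal and coding promoter peaks (adjusted exact p = 0.117 and 0.140). Its pooled difference from coding promoter peaks was 6.36 points (3.26 to 10.1). Within CpG-poor peaks the difference from coding promoter peaks was −0.842 points for TGGGAA (−4.83 to 3.89) and 2.84 points for TGAGAA (−1.1 to 7.54). Within CpG-rich peaks it was 4.48 points for TGGGAA (−1.49 to 13.07) and 0.722 points for TGAGAA (−2.68 to 7.46). All 4 of these intervals thus spanned both signs. AGGGGGC, part of the CTCF motif, was in 8.33%, 8.86% and 10.2% (adjusted exact p = 1.0 and 0.659). Over the whole peak, however, AGGGGGC was in 19.4% of lncRNA and 33.1% of coding promoter peaks, lower on 17 of 19 autosomes (adjusted exact p = 0.00200). Coding promoter peaks were also wider, and these shares were not matched for width. For 4 rarer cores, each in less than 5% of all autosomal peaks, the sign test leans to lower, since an autosome with few lncRNA promoter peaks often has none with the core. Of these, TGACGTCA was in 1.47% of lncRNA promoter peaks, which was 1.13 points above distal peaks (95% Newcombe interval 0.332 to 2.83), while the difference from coding promoter peaks was −0.139 points (−0.975 to 1.58). TGCGCA, the core of NRF1, was in 4.41%, and the difference was −3.89 points from coding promoter peaks (−5.58 to −1.38) and 2.25 points from distal peaks (0.629 to 4.71). The former was −3.77 points within CpG-rich peaks (−7.19 to 2.99) and −0.0446 points within CpG-poor peaks (−1.85 to 2.78). CCAATCA, the core of NFY, was in 4.17%, with differences of −1.30 points from coding promoter peaks (−2.92 to 1.14) and 1.71 points from distal peaks (0.146 to 4.12). CACGTG, bound by MYC and USF, was in 5.88%, with differences of 0.0378 (−1.92 to 2.79) and 1.59 points (−0.325 to 4.33). Within CpG-rich peaks CACGTG was in 13 of 96 lncRNA promoter peaks, with differences of 7.25 (1.77 to 15.53) and 7.35 points (1.46 to 15.78). The autosomes were split, with 8 higher and 10 lower against coding promoter peaks, and 8 and 9 against distal peaks. Pooled intervals were not adjusted for the number of cores and strata. Within CpG-poor peaks the differences were −1.18 (−2.94 to 1.58) and −0.706 points (−2.28 to 1.98).

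Base composition moved with these differences. Within CpG-rich peaks GGGCGG was in 55.2% of lncRNA promoter peaks, 61.9% of coding promoter peaks and 49.8% of distal peaks, and neither difference passed the test. Within CpG-poor peaks it was in 14.7%, 24.1% and 7.97%, and only the difference from coding promoter peaks passed (adjusted exact p = 0.0487). Against distal peaks, 0 of the 11 cores passed the adjusted exact sign test within either stratum, while 3 in CpG-rich and 0 in CpG-poor peaks had an unadjusted p below 0.05. With all autosomes pooled, intervals within CpG-poor peaks excluded 0 for GGGCGG (6.77 points, 3.25 to 11.15) and CCGGAA (2.825, 0.458 to 6.23). They also did so for TGCGCA (1.98, 0.34 to 4.745), TGACGTCA (1.28, 0.3585 to 3.37) and TGTGGTT (−3.84, −6.35 to −0.318). Intervals of the other cores included 0. Within CpG-rich peaks only that of CACGTG excluded 0.

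**Figure D4:**
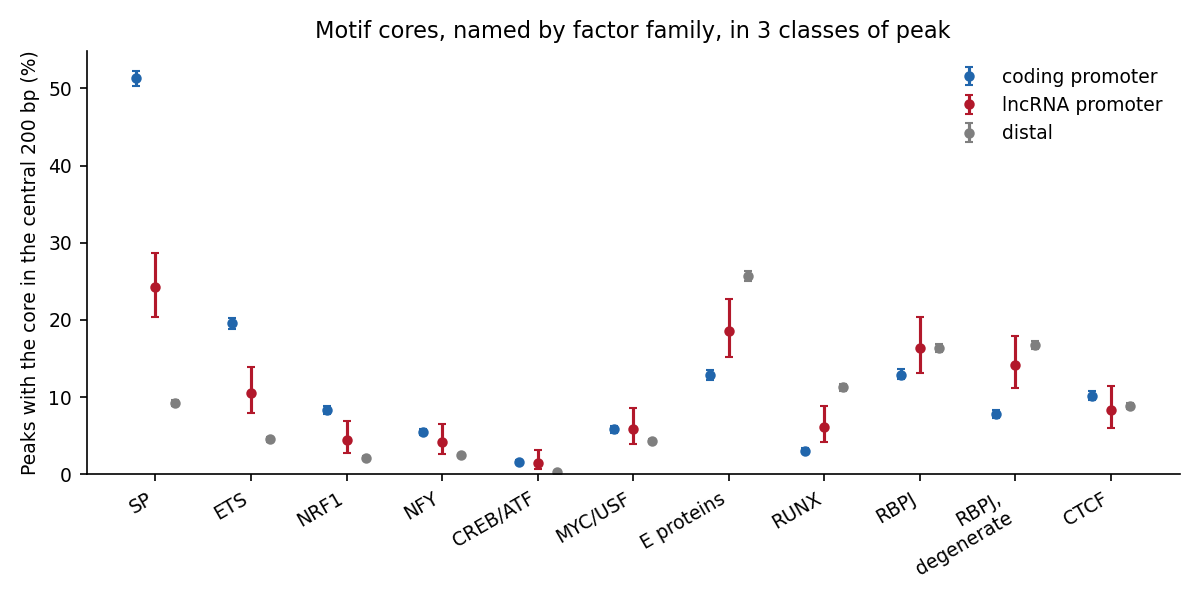
Points give the percentage of peaks with each core in the central 200 bp, named by the factors that bind it, with 95% Wilson intervals. LncRNA promoter peaks lie between the other classes for the cores of SP, ETS, E-protein and RUNX factors, and at the RBPJ core they show 16.4%, as do distal peaks.

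The peaks with the most TGGGAA over their whole length were at Pvt1 (5), Malat1 (4), Morrbid (4), Gm12305 (4) and Gm11201 (4). They were among the wider peaks, at 961 to 1745 bp, and wider peaks hold more matches of any core. Below are the 200 bp with most matches in 2 of them, shown because RBPJ is the factor through which Notch acts on its targets. TGGGAA and its reverse complement TTCCCA are in capitals, on the strand of the lncRNA.
Pvt1, chr15:61869654-61869853, plus strand: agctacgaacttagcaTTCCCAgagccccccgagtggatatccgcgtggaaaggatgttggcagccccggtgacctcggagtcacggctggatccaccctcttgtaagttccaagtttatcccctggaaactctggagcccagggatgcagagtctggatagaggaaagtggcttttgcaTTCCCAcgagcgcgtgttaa
Gm12305, chr11:68084487-68084686, minus strand: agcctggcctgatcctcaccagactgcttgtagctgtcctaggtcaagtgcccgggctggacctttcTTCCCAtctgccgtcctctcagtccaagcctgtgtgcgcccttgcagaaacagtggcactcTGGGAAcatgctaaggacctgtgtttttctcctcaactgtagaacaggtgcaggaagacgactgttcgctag

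Both stretches held 2 matches. The middle of the stretch lay 212 bp from the annotated start of Pvt1 and 206 bp from that of Gm12305, a transcript inside the coding gene Ntn1. A match describes the letters only, and binding was not measured in these libraries.

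Of 56 lncRNA names on a list of well-known genes, 17 had a lncRNA promoter peak. Over all autosomal lncRNA genes of the annotation, 387 of 3669 had one. For 7 names the peak also lay within 1 kb of a coding start, among them Gas5 (Zbtb37), Snhg1 (Slc3a2), Tug1 (Morc2a) and Snhg3 (Rcc1). Snhg2 was read as another name of Gas5, so both names stand for the same peak. For 14 names no peak lay within 1 kb, 5 were coding genes in the annotation used, and 13 were not found in it by name. Neat1, the scaffold of paraspeckles, had its nearest peak 1124 bp from a start, so it fell just outside the limit. The imprinted genes Meg3, Rian and Mirg, which lie in 1 cluster on chromosome 12, had their nearest peaks 83733, 146677 and 277713 bp away, and H19 had its nearest peak at 2000 bp. Airn, which is imprinted too, had a CpG-rich peak of 725 bp over its start. Hotair and Hottip of the Hox clusters, Miat, Rmst and Fendrr had none within 1 kb.

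Several of the 17 names were hosts of snoRNAs, the guides of rRNA modification. In all, 16 peaks lay at 13 genes with an annotated snoRNA on the same strand. The start lay inside 13 of the 16, and 11 of the 16 were CpG-rich. Their median width was 775 bp, and widths ranged from 386 to 1339 bp. The widest was at Snhg17 (9430008C03Rik, chr2:158186618-158187956) and the next at 1110038B12Rik. Snhg5 had a peak of 987 bp with a CpG ratio of 0.931 (chr9:88417415-88418401), and Dancr (2700023E23Rik) had one of 923 bp. Snhg7 and Snhg12 each had a CpG-rich peak over the start (742 and 612 bp) and a narrower CpG-poor peak beside it (409 and 424 bp). Over all lncRNA genes that hold a snoRNA, an accessible start was found for 18 of 36 (interval of the share 34.5% to 65.5%), coding neighbours included.

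Hosts of miRNAs had 17 peaks at 13 genes, of which 9 were CpG-rich, with a median width of 795 bp. Dleu2 had CpG-rich peaks of 1545 bp (chr14:62266702-62268246) and 1231 bp (chr14:62300799-62302029) at 2 of its starts and a CpG-poor peak of 800 bp between them. Mir17hg, the host of the Mir17 to Mir92 cluster, had a peak of 569 bp with 72.4% GC that ended 371 bp before the annotated start (chr14:115441162-115441730). A430104N18Rik, the host of Mir142, a miRNA of blood cells, had CpG-poor peaks of 1190 and 914 bp (chr11:87568094-87569283 and chr11:87569736-87570649). Another CpG-rich peak, of 784 bp, lay at 1700016P03Rik, the host of Mir132 and Mir212. The remaining 375 peaks, at genes with neither kind of small RNA, had a median width of 615 bp, and 76 of them were CpG-rich. Over all lncRNA genes that hold a miRNA but no snoRNA, 17 of 51 (33.3%, 22.0 to 47.0) had a peak.

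**Figure D5:**
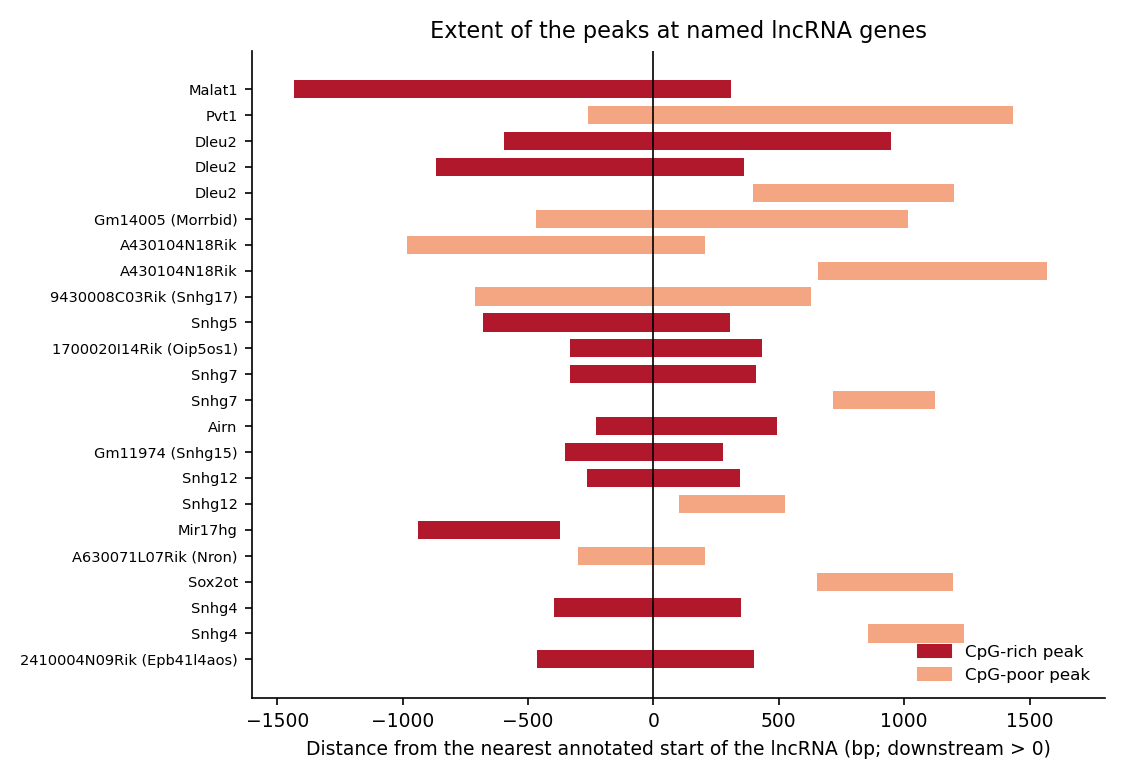
Each bar is 1 lncRNA promoter peak at a gene of the list of well-known lncRNAs, drawn in bp from the nearest annotated start, with downstream to the right. Most bars cross the start, the Mir17hg peak ends 371 bp upstream of it, and the widest bar is the 1745 bp of Malat1.

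The surroundings of the lncRNA promoter peaks varied. In total 278 lay outside coding genes (68.1%), 103 lay inside a coding gene on the other strand (25.2%), 23 inside one on the same strand and 4 inside genes of both strands. The nearest coding start was a median of 15.6 kb away. It lay at 1 to 5 kb for 90 peaks, at 5 to 50 kb for 240 and farther for 78. Among the 90 closest, the coding gene was head to head with the lncRNA in 47 (52.2%, 42.0 to 62.2). It was on the other strand downstream in 30 and on the same strand in 13. Over all 408 peaks the head-to-head share was 32.8%, and no share for other peaks was counted. For 275 of 408 (67.4%, 62.7 to 71.8) the coding gene with the nearest start had a promoter peak of its own. Over all autosomal coding genes the share was 47.6%, and the cause of the difference was not tested. Another peak lay within 5 kb of 40.4% of lncRNA promoter peaks, against 26.8% of coding promoter peaks, a difference of 12.4 ± 12.9 points (15 of 19 autosomes, exact p = 0.0192). It was also higher than in distal peaks (29.0%, exact p = 0.0192). For lncRNA promoter peaks more than 5 kb from every coding start it was 35.5%, and the difference from coding promoter peaks did not pass (exact p = 0.167).

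Of the 408 lncRNA promoter peaks, 7 had their nearest coding start at 6 genes of a list of 60 T-cell and Notch genes. No Notch receptor gene was among the 6. The share of all coding genes nearest to such a peak was not counted, so these peaks are given as a description. Of that list, 51 of 58 autosomal coding genes had an accessible start themselves, against 47.6% of all autosomal coding genes. Tcf7, which encodes the transcription factor TCF1 of T-cell commitment, had 2 such peaks within its gene. The peak of 1026 bp at A630014C17Rik (chr11:52088452-52089477), on the strand opposite to Tcf7, lay 6269 bp from the nearest Tcf7 start and held 2 TGGGAA. The peak of 461 bp at Gm16953 lay 13299 bp from it. Gm16565 had a peak of 1186 bp (chr1:167710123-167711308) 7504 bp from a start of Cd247, which encodes the zeta chain of the T-cell receptor complex. Gm11579 had one of 468 bp 35241 bp from Cd28, the costimulatory receptor. Gm15417 had a CpG-rich peak of 593 bp, head to head with Zbtb7b, the CD4-lineage factor, at 1364 bp. Zbtb7b itself had no peak within 1 kb of a start. RP24-337A16.1 had one of 314 bp inside Foxo1, 1644 bp from its start. The Pvt1 peak lay 50304 bp from the Myc start.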

How the data were processed

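ATAC-Seq was done on 6 libraries of Beko cells, 3 with GSI and 3 with DMSO for 24 h, and groups came from the labels. The authors aligned reads to mm9 with HISAT2 2.2.1, 1 alignment for each read, and discarded duplicates (Picard). Peaks came from MACS2 without an input and from MSPC across replicates. Those present in at least 3 of 6 libraries and outside blacklisted regions were kept. Keeping 1 alignment places reads of repeats at 1 of several equal sites. A peak of 1 treatment can enter the list, and without input the background comes from that library itself. The deposited values are peak positions in bp. The deposited score was 0 throughout and was not used. Depth per library was not used here.

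Starts were read as counted from 0 and are printed counted from 1. The reference was NCBIM37, the same build as mm9, with GENCODE vM1. Its gene types alone decided which genes were lncRNA or coding. RefSeq (GRCm38.p6) gave current symbols and types only. Distances ran from the peak edge to the start. The classes were compared within each of 19 autosomes with a two-sided exact sign test on the difference, with Benjamini-Hochberg adjustment over the 11 cores. Autosomes are not replicates, so p measures the spread over autosomes. Wilson and Newcombe intervals treat peaks as independent. Methods were tested on simulated data. Python 3.11.15, numpy 2.4.6, scipy 1.17.1, pandas 2.3.3, pysam 0.24.0 and matplotlib 3.10.9 were used.

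The peaks, gene lists and tests were chosen with earlier results of these data known. The genes named were the fixed list of well-known lncRNAs, the 5 widest peaks, the genes with most peaks, the 5 peaks with most TGGGAA, peaks whose nearest coding start was in the T-cell and Notch list, and peaks next to the 1 kb limits. Gfi1, the further hosts of small RNAs and the stretches printed were chosen after their values were seen. Alternatives changed the distance limits, gene types, minimum width, CpG definition, sequence window, base composition and number of transcripts. Others, added once the data had been seen, left out genes that RefSeq types otherwise or chromosomes 2, 4 and 11, compared reach with coding promoter peaks, and used the window around the start. The sequence at a further start is not reported here.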

Additional observations from a re-analysis of the deposited data

How the results depend on the processing

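Of 67 recomputed values of the main comparisons, 55 kept their direction and their side of the threshold, or stayed within 1.5 times for counts. Counts of peaks or of passed cores have no direction, and none of the other values reversed. A similar count of cores can hold other cores or directions. Against distal peaks, 2 passed cores were higher and 2 lower by mean difference in the central 200 bp, but 3 and 0 over the whole peak. Width against coding promoter peaks fell to −47.6 bp among CpG-poor peaks, where the reach difference was 163 bp and missed the threshold. The gene share difference shrank to −2.45 points for genes with 1 transcript. The neighbour difference was 9.05 points at 2 kb and 5.99 points away from coding starts, and neither passed. The number of lncRNA promoter peaks was 246 with the start inside and 183 for lincRNA genes only, which equals leaving out processed_transcript genes here. Against coding promoter peaks, 2 cores passed the test in the central 200 bp, 4 over the whole peak, and 1 among CpG-poor peaks or without chromosomes 2, 4 and 11. The 2 that passed among CpG-rich peaks were TGACGTCA and TGTGGTT, each in 1 of 96 lncRNA promoter peaks (1.04%). Their pooled intervals include 0. With so few matches most autosomes hold none, so the sign test leans to lower and nothing is drawn from them. Against distal peaks, 4 cores passed, and 0 among CpG-rich or CpG-poor peaks.

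Of 98 recomputed differences of single cores, 60 kept direction and side, 2 newly passed and 18 turned sign. Those newly passed were AGGGGGC over the whole peak and TGTGGTT in CpG-rich peaks, against coding promoter peaks. TGTGGTT was there in 1 of 96 lncRNA promoter peaks, where the sign test leans to lower. In all 20 no longer passed, of which 2 also turned sign. In percentage points, those that turned against coding promoter peaks were TGGGAA over the whole peak (−6.74) and in CpG-poor peaks (−0.856), CAGCTG in CpG-rich peaks (−3.83) and lincRNA genes (−0.117), TGAGAA in CpG-rich peaks (−1.16) and TGTGGTT in CpG-poor peaks (−0.667). Against distal peaks, CAGCTG (3.65), TGGGAA (2.99), TGAGAA (2.10) and AGGGGGC (4.53) turned over the whole peak. GGGCGG (−2.37) and TGGGAA (2.58) turned in CpG-rich peaks, and TGGGAA (0.0588) and TGAGAA (0.394) in CpG-poor peaks. TGGGAA turned for lincRNA genes (1.68) and more than 5 kb from coding starts (1.89), and AGGGGGC without genes RefSeq types otherwise (0.304) and without chromosomes 2, 4 and 11 (0.423). The cause was not tested. No paired analysis was possible because both treatments share 1 merged set of intervals, and for that reason no library could be left out.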
